A study of Mus musculus with 20 samples.

Results

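De novo lipogenesis is the making of fatty acids from sugar, and 10 genes of this pathway were described in mouse hepatocytes by H3K27ac, the acetylation of lysine 27 of histone H3 that is found at promoters and enhancers in use. The genes were Srebf1, Mlxipl, Acly, Me1, Acaca, Acacb, Fasn, Thrsp, Elovl6 and Scd1. They were 10 of 21883 protein-coding genes, chosen by name as members of the pathway. For each gene the called H3K27ac regions that overlapped its RefSeq span extended by 5 kb on both sides were taken, and their tags and lengths were summed in each library. All 10 genes had a called region in all 10 libraries, which was so for 9700 of the 21883 gene windows. The libraries came from hepatocytes isolated by liver perfusion from old mice (23 months, C57BL/6J) and young mice (5 months, C57BL/6N), with 5 H3K27ac libraries per age and 5 input samples per age. Age and substrain coincide in the labels, so their contributions cannot be told apart. At both ages a spike-in of human chromatin had gone into the samples, and no spike-in scaling was applied here. Whether the libraries of an age stem from different mice is not stated in the labels. The p-values therefore rest on the variation among these libraries, which may be technical in part.

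In the liver, surplus glucose is broken down to citrate, which leaves the mitochondria and is cut by ATP citrate lyase (Acly) to give cytosolic acetyl-CoA. Acetyl-CoA carboxylases (Acaca, Acacb) make malonyl-CoA from it, fatty acid synthase (Fasn) builds palmitate with NADPH supplied in part by malic enzyme (Me1), and Elovl6 and Scd1 elongate and desaturate the product. SREBP-1c, encoded by Srebf1, drives these genes in response to insulin, and ChREBP, encoded by Mlxipl, does so in response to sugar.

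The promoters of the members on which the description below turns most are shown here as the 250 bases before an annotated start, 5′ to 3′ on the gene's own strand, from RefSeq (GRCm38.p6). Acacb and Elovl6 had the largest differences between ages, Elovl6 only just ahead of Scd1, and Srebf1 the most tags. Mlxipl and Fasn were added after their values were seen, because Mlxipl has a pair of separately acetylated starts and Fasn is the enzyme at the centre of the pathway. Capitals mark 6 motifs searched on both strands, which were the E-box CACGTG, the sterol regulatory element TCACNCCAC, the CCAAT box CCAAT, the GC box GGGCGG, the liver X receptor motif DR4 (AGGTCA repeated after 4 bases) and the TATA box TATAAA.
Srebf1, downstream start (chr11:60210472-60210721, minus strand): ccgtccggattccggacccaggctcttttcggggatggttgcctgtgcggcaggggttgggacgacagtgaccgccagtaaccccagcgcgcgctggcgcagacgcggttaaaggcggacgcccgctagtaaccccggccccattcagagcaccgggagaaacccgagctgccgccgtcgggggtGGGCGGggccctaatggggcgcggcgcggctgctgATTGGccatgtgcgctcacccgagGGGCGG
Srebf1, an upstream start (chr11:60220628-60220877, minus strand): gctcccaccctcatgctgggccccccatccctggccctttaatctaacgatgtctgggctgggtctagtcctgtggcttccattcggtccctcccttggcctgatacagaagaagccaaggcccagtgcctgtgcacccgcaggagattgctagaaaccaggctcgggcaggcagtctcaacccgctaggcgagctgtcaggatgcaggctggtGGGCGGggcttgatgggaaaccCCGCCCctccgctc
Mlxipl, upstream start (chr5:135089640-135089889, plus strand): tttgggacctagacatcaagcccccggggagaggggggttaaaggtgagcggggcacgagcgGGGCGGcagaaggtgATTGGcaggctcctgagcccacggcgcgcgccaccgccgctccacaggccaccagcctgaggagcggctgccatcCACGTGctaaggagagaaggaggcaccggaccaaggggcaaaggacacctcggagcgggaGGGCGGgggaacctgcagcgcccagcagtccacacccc
Mlxipl, downstream start (chr5:135106641-135106890, plus strand): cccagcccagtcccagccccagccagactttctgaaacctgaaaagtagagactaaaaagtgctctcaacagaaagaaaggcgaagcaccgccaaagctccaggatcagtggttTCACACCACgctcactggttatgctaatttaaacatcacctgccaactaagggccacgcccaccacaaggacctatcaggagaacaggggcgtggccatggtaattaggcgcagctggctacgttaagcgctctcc
Fasn (chr11:120824548-120824797, minus strand): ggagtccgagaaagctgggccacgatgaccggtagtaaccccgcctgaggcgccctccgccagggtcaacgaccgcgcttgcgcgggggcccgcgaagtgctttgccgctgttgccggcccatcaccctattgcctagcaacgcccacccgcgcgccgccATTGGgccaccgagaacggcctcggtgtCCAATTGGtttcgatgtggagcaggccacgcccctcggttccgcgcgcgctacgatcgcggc
Acacb, the start in the table (chr5:114165268-114165517, plus strand): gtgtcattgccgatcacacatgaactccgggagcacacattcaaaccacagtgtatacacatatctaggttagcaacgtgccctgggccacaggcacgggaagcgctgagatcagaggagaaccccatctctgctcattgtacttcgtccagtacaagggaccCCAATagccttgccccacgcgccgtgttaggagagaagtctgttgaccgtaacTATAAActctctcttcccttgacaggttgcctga
Elovl6 (chr3:129532136-129532385, plus strand): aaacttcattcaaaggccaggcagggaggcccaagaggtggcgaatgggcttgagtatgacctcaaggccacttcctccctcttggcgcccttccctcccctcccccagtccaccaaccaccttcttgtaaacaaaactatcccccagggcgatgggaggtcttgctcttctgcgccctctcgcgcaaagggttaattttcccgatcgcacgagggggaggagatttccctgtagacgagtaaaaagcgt
The table held 13 promoters of 9 members, each with 250 bases before and 50 after the start. The E-box, the core of sites that ChREBP is known to use, was found in 1 of the 13, at the upstream start of Mlxipl, and in 7.15% of all 32851 promoters. The sterol regulatory element, the site SREBP proteins are known to bind, was found in 1, at the downstream start of Mlxipl, against 1.242% of all promoters. CCAAT boxes stood in 8 of the 13 promoters, from 7 genes (37.41% of all), and GC boxes in 5, from 4 genes (35.66% of all). The TATA box stood in 1, that of Acacb (13.62% of all), and the exact letters of DR4 in 0 (0.01522% of all). Sites that depart from the exact letters were not counted, so 0 does not show that a promoter lacks a liver X receptor site. These letters are a description of the windows searched and no test of binding.

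The comparison of ages asked whether the acetylation of these genes differed in old hepatocytes. Scaled tags are the tags in called regions after the authors had scaled each library to 10000000 tags. For the test, log2 of scaled tags plus 1 was centred on each library's median gene window and fitted with limma across all 9700 windows with Benjamini-Hochberg adjustment, so a log2 difference is old minus young relative to the median window. No member passed the threshold of an adjusted p of 0.05 in this test. The 10 adjusted p-values from limma lay between 0.368 and 0.916, and 0 members had an unadjusted p under 0.05. Over all windows 21 of 9700 were called (0.216%), with 12 higher in old hepatocytes and 9 lower. An unadjusted p under 0.05 was reached by 13.7% of windows. The members' count of 0 called is near the background share. edgeR's quasi-likelihood test on the unscaled tags called 0 members, with 0 at an unadjusted p under 0.05, against 0.485% of all windows called and 14.1% at an unadjusted p under 0.05. DESeq2 called 0 as well, with 1 member, Srebf1, at an unadjusted p under 0.05 and an adjusted p of 0.181, against 3.07% of all windows called and 15.4% at an unadjusted p under 0.05. Relative to the median window 4 members were on the higher side in old hepatocytes (Scd1, Srebf1, Fasn and Me1) and 6 on the lower side. Of all windows 50.4% were on the higher side. The median of the 10 log2 differences was −0.09, and that of all windows was 0.00.

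The median window itself carried less signal in the old libraries, by −0.34 on the log2 scale (8.10 in old and 8.44 in young libraries). The share of tags inside called regions moved with it and averaged 31.9% in old and 40.2% in young libraries. Without centring all 10 members were lower in old hepatocytes, still with 0 called and a smallest adjusted limma p of 0.0794. What part the share of tags in regions has in that shift was not tested. The 8 hepatocyte markers (Alb, Apoa1, Ttr, Apob, Cps1, Hnf4a, Serpina1b, Tat) were called in all 10 libraries, and all 8 lay on the lower side in old hepatocytes, with a median log2 difference of −0.37, 0 called and 4 at an unadjusted p under 0.05. Their summed scaled tags ranged over 3980 to 6588 in old and 7246 to 9781 in young libraries. Of the markers of other cells, 6 of 7 Kupffer cell genes and 6 of 7 stellate cell genes, among them Clec4f, Adgre1, Lrat and Des, had no region in any library. The summed scaled tags of the Kupffer cell list were 0 in every old library and at most 12.5 in a young one, and those of the stellate cell list were 44.5 to 103 in old and 0 to 144 in young libraries. Endothelial, cholangiocyte, lymphocyte and adipocyte lists summed to 125 to 452, 222 to 520, 415 to 601 and 26.5 to 201 in old libraries and to 252 to 377, 253 to 580, 370 to 760 and 25.2 to 195 in young libraries. Kdr, Cdh5, Krt19, Krt7, Epcam, Ptprc and Cd3e had no region in any library. The part of the hepatocyte list in the members' values was not tested. Fewer cells of a type and less signal per cell cannot be told apart in such libraries.

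**Figure D1:**
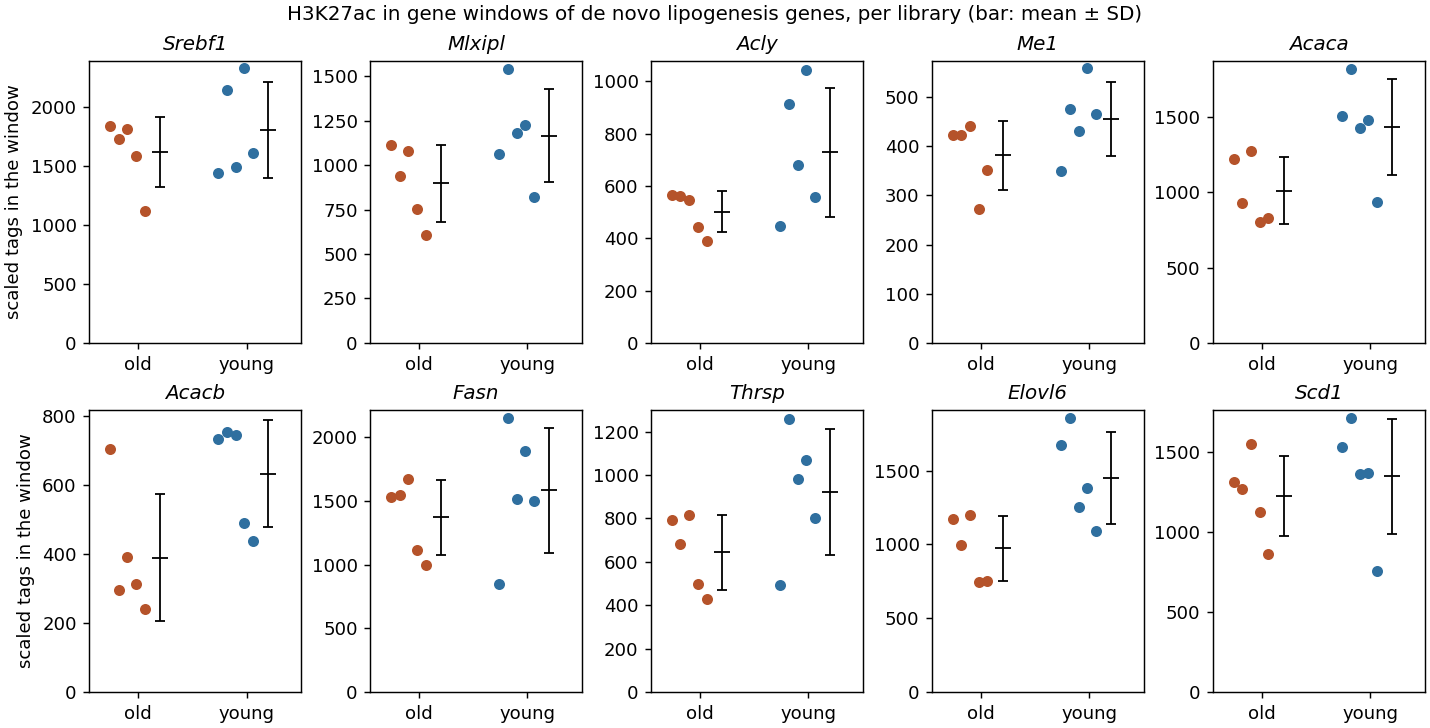
Scaled tags (tags per 10000000) in the window of each member, 1 point per library, old libraries left and young libraries right in replicate order. The bars give the mean ± SD of 5 libraries. In all 10 panels the points of the ages overlap, and the mean of the old libraries is the lower one.

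Srebf1 encodes SREBP-1, the transcription factor that insulin activates in the liver. Its window (span chr11:60199084-60224186) held the most scaled tags of the 10, with 1836, 1732, 1817, 1583 and 1119 in old replicates 1 to 5 and 1443, 2148, 1494, 2329 and 1614 in young replicates 1 to 5. The ages overlapped, and the 2 highest libraries, young 4 and young 2, were also those with the largest share of tags in regions (46.5% and 48.2%). Srebf1 had the most even values of the members in young hepatocytes, where the SD of its log2 values relative to the median window was 0.07, lower than in all but 1.77% of windows. The log2 difference was 0.19 ± 0.09 (SE; limma adjusted p = 0.368), a 1.14-fold difference with a 95% interval of 0.999 to 1.30, and on that scale all 5 old libraries lay above the young median. With 1 library left out it stayed between 0.16 and 0.24. Its adjusted p was the smallest of the 10 members.

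Nearly all of the Srebf1 signal, 99.3% of the tags, lay in a pair of regions at annotated starts. The region at the downstream start (chr11:60201186-60214135), which in mouse is known as the start of the SREBP-1c form, held 830 ± 197 scaled tags in old and 927 ± 274 in young libraries (SD, n = 5 each). Its log2 difference was 0.15 ± 0.13 (SE; limma adjusted p = 0.601). The region over the upstream starts (chr11:60218339-60226707), from which SREBP-1a is known to be made, held 781 ± 124 in old and 861 ± 136 in young libraries. That difference, 0.15 ± 0.09 (SE; limma adjusted p = 0.432), was of the same size as the one at the downstream start. Whether the starts differed in it was not tested. In height the downstream region was less dense in old libraries, with a log2 difference of −0.19 on tags per kb (limma adjusted p = 0.554), and its direction therefore depended on the measure.

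Mlxipl encodes ChREBP, the factor that carries the sugar signal. Its window (span chr5:135089890-135139768) held 1112, 941, 1082, 753 and 604 scaled tags in old replicates 1 to 5 and 1061, 1539, 1179, 1227 and 822 in young replicates 1 to 5. Old 5 was the lowest and young 2 the highest library, and the ages overlapped. With a log2 difference of −0.04 ± 0.13 (SE; limma adjusted p = 0.916; fold 0.97, 95% interval 0.80 to 1.18) Mlxipl was the member nearest to the median window. Of its tags 94.2% lay in 2 regions. The region at the upstream start (chr5:135088756-135092285), known as the start of the ChREBP-beta form, which ChREBP itself activates, held 221 ± 58.3 scaled tags in old and 278 ± 56.7 in young libraries (SD, n = 5 each). The one at the downstream start (chr5:135103657-135112508), that of ChREBP-alpha, held 638 ± 136 in old and 808 ± 200 in young libraries. The log2 differences were −0.06 ± 0.12 (SE; limma adjusted p = 0.855) and −0.04 ± 0.13 (SE; limma adjusted p = 0.912).

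**Figure D2:**
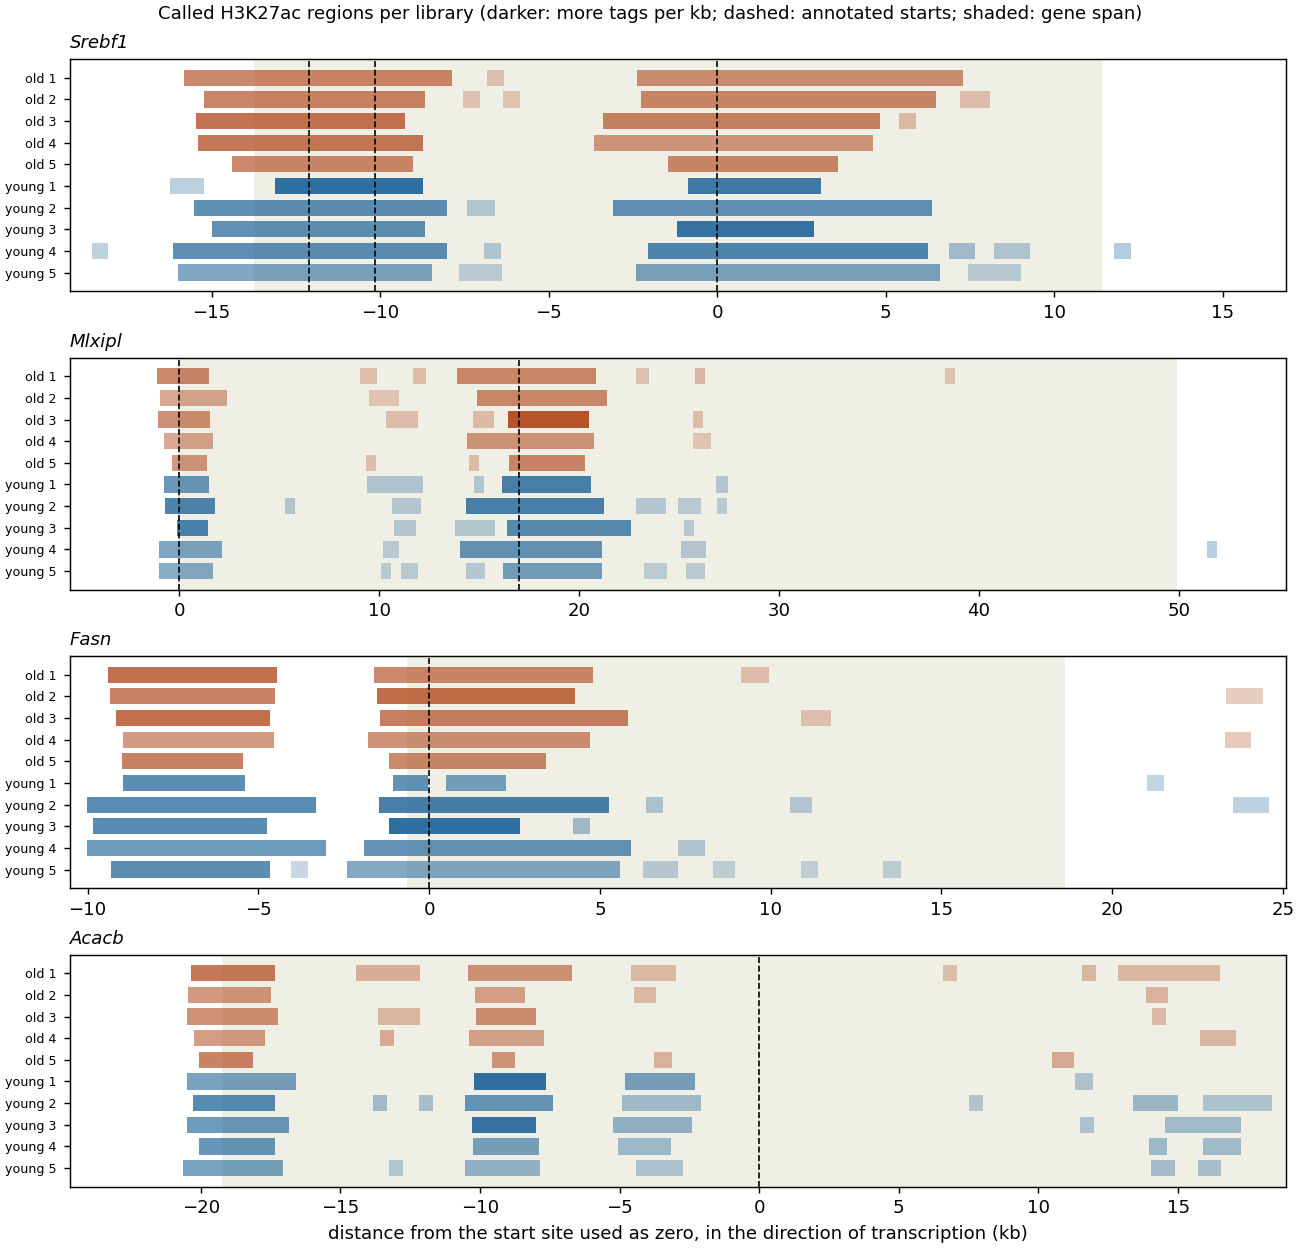
Called regions of each library at Srebf1, Mlxipl, Fasn and Acacb along the distance in kb from an annotated start, old libraries above young ones, with darker bars for more tags per kb. Dashed lines are annotated starts and shading is the gene span, that of Acacb shown only as far as regions were called. Srebf1 and Mlxipl have a block at each start, Fasn has a second block upstream of its start, and the Acacb block about 3 kb before its dashed line is missing in old 3 and old 4.

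Acly, the enzyme that makes cytosolic acetyl-CoA from citrate, held 566, 560, 546, 445 and 391 scaled tags in old replicates 1 to 5 and 447, 912, 681, 1045 and 557 in young replicates 1 to 5. The old libraries lay close together and the young ones ranged widely, with overlap. The SD of its log2 values relative to the median window was 0.04 in old hepatocytes, lower than in all but 0.423% of windows, and 0.28 in young ones. Old minus young gave a log2 difference of −0.14 ± 0.12 (SE; limma adjusted p = 0.629; 95% interval of the fold 0.75 to 1.09), which ranged from −0.24 without young 1 to −0.07 without young 4. Most of the signal, 65.2% of the tags, lay in the region at the start of Acly (chr11:100523695-100532190), and 22.1% lay in a region within 1 kb of a start of the neighbour Klhl11, which the flank brought into the window. Young 1 had no call in that Klhl11 region, where the other libraries held 80.1 to 264 scaled tags. In the region at the start of Acly young 1 held 416 scaled tags, within the range of 295 to 577 of all libraries.

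Me1, the cytosolic malic enzyme that makes NADPH, held 423, 423, 441, 272 and 352 scaled tags in old replicates 1 to 5 and 351, 476, 431, 559 and 466 in young replicates 1 to 5. The lowest library was old 4 and the highest young 4, and the ages overlapped. On the log2 scale the difference was 0.08 ± 0.12 (SE; limma adjusted p = 0.802; 95% interval of the fold 0.88 to 1.28), from 0.02 without old 5 to 0.17 without old 4. Although the gene spans 115 kb (chr9:86581363-86695914), 98.6% of its tags lay in the region at its start (chr9:86692751-86696933), and called regions filled 3.17% of the window, the lowest share of the 10.

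Acaca encodes the cytosolic acetyl-CoA carboxylase that feeds fatty acid synthesis. Its window held 1219, 928, 1274, 802 and 827 scaled tags in old replicates 1 to 5 and 1508, 1820, 1425, 1480 and 936 in young replicates 1 to 5. On the scaled tags as deposited 4 of the young libraries lay above all old ones, and young 5 lay among the old ones. Relative to the median window young 4 (10.08 on the log2 scale) also lay below old 1, old 3 and old 5 (10.30, 10.35 and 10.19). Relative to the median window the log2 difference was −0.16 ± 0.16 (SE; limma adjusted p = 0.678; 95% interval of the fold 0.71 to 1.14), and it ranged from −0.27 without young 5 to −0.07 without young 1. The signal was spread over 17 regions, 6 of them called in all 10 libraries. The strongest (chr11:84177910-84183157) lay inside the gene, 12.3 kb from the start in the table, and held 390 ± 53.2 scaled tags in old and 545 ± 119 in young libraries (SD, n = 5 each), a log2 difference of −0.17 ± 0.11 (SE; limma adjusted p = 0.484). The region at the start in the table held 21.1% of the tags. Another 9.75% lay in a region over the start of the gene span, also within 1 kb of a start of the neighbour Tada2a.

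Acacb encodes the carboxylase at the mitochondrial surface, whose malonyl-CoA is known to restrain fatty acid oxidation. It had the largest difference of the members. Its window held 705, 296, 392, 313 and 241 scaled tags in old replicates 1 to 5 and 735, 756, 747, 492 and 438 in young replicates 1 to 5. On the scaled tags as deposited the ages overlapped only through old 1, since the other 4 old libraries lay below all young ones. Relative to the median window old 3 and old 4 (8.65 and 8.58 on the log2 scale) also lay above young 4 (8.49). The log2 difference was −0.43 ± 0.27 (SE; limma adjusted p = 0.496; fold 0.74, 95% interval 0.50 to 1.12), without old 1 it was −0.64 (limma adjusted p = 0.341), and without young 1 it was −0.30. Acacb was also the most variable member, with an SD of its log2 values relative to the median window of 0.50 in old and 0.48 in young hepatocytes, against medians of 0.20 and 0.27 over all windows.

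The Acacb signal lay in a row of regions at and after the start of the gene span (chr5:114146321-114250761), and no region lay within 1 kb of the only start in the promoter table. The strongest region (chr5:114144886-114148942), which contains the start of the span, held 185 ± 47.6 scaled tags in old and 247 ± 24.1 in young libraries (SD, n = 5 each), with a log2 difference of −0.15 ± 0.16 (SE; limma adjusted p = 0.683). The next (chr5:114154987-114158809) held 125 ± 68.9 in old and 215 ± 79.4 in young libraries, with a difference of −0.58 ± 0.35 (SE; limma adjusted p = 0.432). Another (chr5:114160294-114163429), 2.09 kb from the start in the table, was singled out after its values were seen. It held 36.6, 16.2, 0, 0 and 18.3 scaled tags in old replicates 1 to 5, where 0 stands for no call, and 161, 95, 122, 65.6 and 38 in young replicates 1 to 5. On the scaled tags as deposited the ages did not overlap there, but the gap between old 1 and young 5 was small. It is 1 of 91 merged regions in the member windows, and the share of all merged regions without overlap was not computed. Among regions called in at least 2 libraries its limma adjusted p was 0.319. A missing call does not show a missing signal.

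Fasn encodes fatty acid synthase. Its window held 1528, 1550, 1669, 1119 and 996 scaled tags in old replicates 1 to 5 and 849, 2148, 1517, 1896 and 1502 in young replicates 1 to 5. Young libraries were both the lowest, young 1, and the highest, young 2, so the old values lay within the young range. The log2 difference was 0.17 ± 0.15 (SE; limma adjusted p = 0.627; fold 1.13, 95% interval 0.90 to 1.42), and it ranged from 0.03 without young 1 to 0.23 without young 2. The signal lay in 2 regions of like size. The one at the start (chr11:120818625-120826964) held 771 ± 170 scaled tags in old and 804 ± 308 in young libraries (SD, n = 5 each), a log2 difference of 0.32 ± 0.23 (SE; limma adjusted p = 0.498). In young 1 it held 328 tags, against 542 in the lowest old library. The other (chr11:120827573-120834573), 3.03 kb upstream of the start and inside the neighbouring gene Ccdc57, held 583 ± 146 in old and 747 ± 171 in young libraries, a difference of −0.07 ± 0.13 (SE; limma adjusted p = 0.836). With no flank or 2 kb of flank the difference of the Fasn window was therefore 0.36, and it missed the threshold there too.

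Thrsp encodes Spot 14, a small protein that thyroid hormone and sugar are known to induce in the liver and that favours fatty acid synthesis. Its window held 792, 682, 817, 500 and 427 scaled tags in old replicates 1 to 5 and 495, 1258, 980, 1071 and 802 in young replicates 1 to 5. On the scaled tags as deposited young 1 lay among the lowest old libraries, and 3 young libraries lay above all old ones. Relative to the median window young 4 (9.61 on the log2 scale) lay below old 1 and old 3 (9.67 and 9.71). Relative to the median window the difference was −0.15 ± 0.17 on the log2 scale (SE; limma adjusted p = 0.713; 95% interval of the fold 0.70 to 1.16), and it ranged from −0.30 without young 1 to −0.07 without young 3. Thrsp was the simplest locus, a single merged region of 12.6 kb over a gene of 4.62 kb (chr7:97412870-97425487). Tags per kb were 64.7 ± 10.7 in old and 84.0 ± 15.3 in young libraries (SD, n = 5 each). The merged region reached past the window, and in old 5 and young 1 a separately called part beyond the flank was not counted. Over the merged region these libraries held 504 and 591 scaled tags, against 427 and 495 in the window. The other libraries held the same in both. The log2 difference of the merged region was −0.20 ± 0.14 (SE; limma adjusted p = 0.490).

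Elovl6, which extends palmitate to stearate, had a difference about as large as that of Scd1, in the other direction. Its window held 1175, 995, 1199, 747 and 750 scaled tags in old replicates 1 to 5 and 1672, 1854, 1251, 1384 and 1092 in young replicates 1 to 5. On the scaled tags as deposited only young 5 lay below any old library. Relative to the median window young 4 (9.98 on the log2 scale) also lay below old 1, old 3 and old 5 (10.24, 10.26 and 10.05). Relative to the median window the log2 difference was −0.24 ± 0.15 (SE; limma adjusted p = 0.505; fold 0.85, 95% interval 0.67 to 1.07), and it ranged from −0.32 without young 4 to −0.12 without young 1. The region at the start (chr3:129526582-129537745) held 566 ± 86.3 scaled tags in old and 798 ± 174 in young libraries (SD, n = 5 each), a log2 difference of −0.18 ± 0.13 (SE; limma adjusted p = 0.514). A region inside the gene 44.7 kb from that start (chr3:129577067-129586304), singled out after its values were seen, held 187 ± 49.5 in old and 310 ± 84.4 in young libraries. Its difference of −0.43 ± 0.20 (SE; limma adjusted p = 0.280) had an unadjusted p under 0.05 and did not pass the threshold.

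Scd1, the desaturase that makes oleate and the most abundant liver member of its family, held 1317, 1270, 1554, 1127 and 867 scaled tags in old replicates 1 to 5 and 1537, 1717, 1368, 1369 and 757 in young replicates 1 to 5. Young 5 was the lowest of all libraries and young 2 the highest, with the old values between them. The log2 difference was 0.23 ± 0.18 (SE; limma adjusted p = 0.596; fold 1.17, with a 95% interval of 0.89 to 1.55). Without young 5 it was 0.07 and without young 1 it was 0.35. Most of the gene span (chr19:44394450-44407709) lay under a region of 11.5 kb (chr19:44398585-44410048) with 752 ± 180 scaled tags in old and 799 ± 255 in young libraries (SD, n = 5 each; log2 difference 0.25 ± 0.19 SE; limma adjusted p = 0.542). A second region beside the gene (chr19:44386159-44391059), again singled out after its values were seen, held 406 ± 61.0 in old and 429 ± 70.6 in young libraries, with a difference of 0.22 ± 0.10 (SE; limma adjusted p = 0.285) and an unadjusted p under 0.05. The weakest of the 3 regions called in all 10 libraries (chr19:44391924-44397406), which also overlapped the gene, held 68.8 ± 41.3 in old and 122 ± 63.0 in young libraries and lay on the lower side in old hepatocytes, with a difference of −0.54 ± 0.49 (SE; limma adjusted p = 0.621).

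**Figure D3:**
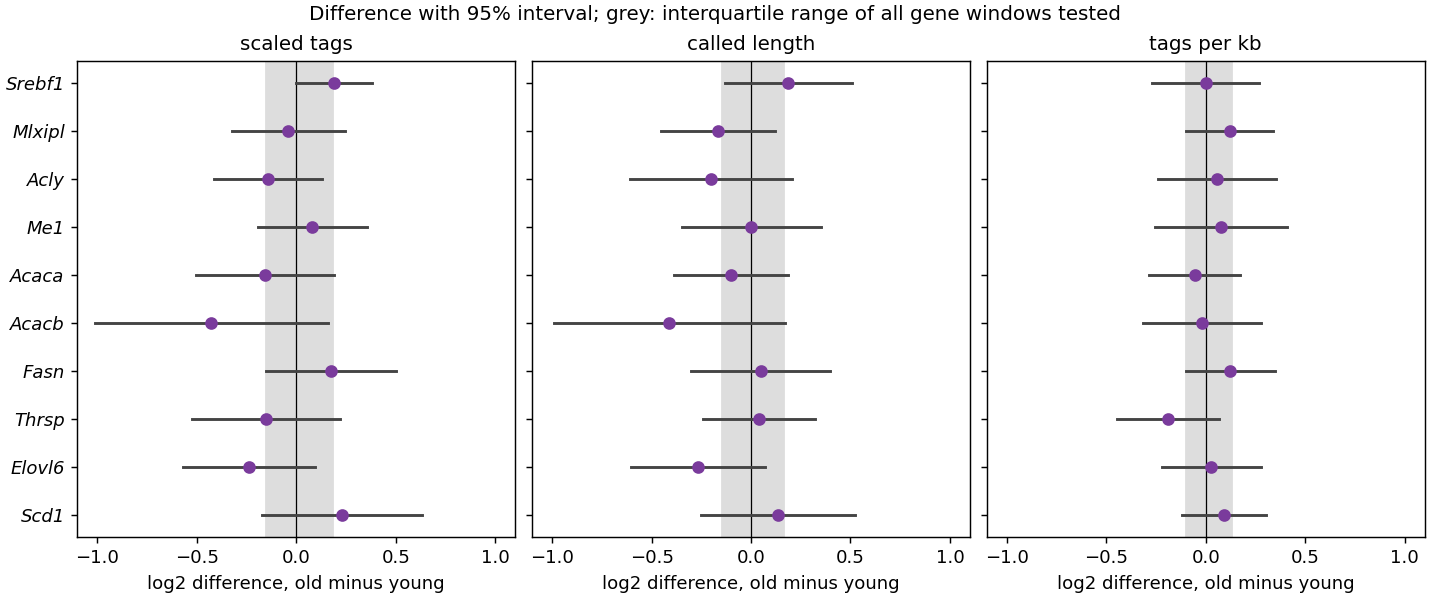
Log2 difference, old minus young, of scaled tags, called length and tags per kb in the 10 windows relative to the median window, with 95% intervals, and in grey the interquartile range of all 9700 windows. All intervals include 0, and Acacb lies farthest from 0 in scaled tags (−0.43).

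Summed over a window, scaled tags grow with the length that each library calls, so length and height were also compared on their own. In called length 0 of 10 members passed the threshold (limma adjusted p between 0.613 and 0.998; 0 at an unadjusted p under 0.05), against 1 of 9700 windows called (0.0103%) and 9.77% at an unadjusted p under 0.05. Acacb was covered by 8045 ± 4249 bp of called region in old and 11032 ± 2249 bp in young libraries (SD, n = 5 each), and Elovl6 by 18140 ± 4824 bp in old and 23812 ± 3018 bp in young libraries. In tags per kb 0 of 10 passed (limma adjusted p between 0.609 and 1.000; 0 at an unadjusted p under 0.05), against 9 windows called (0.0928%) and 10.6% at an unadjusted p under 0.05. The largest difference in tags per kb was that of Thrsp, −0.19 on the log2 scale, and Acacb stood at 49.7 ± 5.75 tags per kb in old and 57.8 ± 12.3 in young libraries, a difference of −0.02 relative to the median window. The ages overlapped at all 10 members in called length, in tags per kb and in scaled tags. Over all windows they did not overlap in 3.95% in called length, in 1.48% in tags per kb, and in 9.32% in scaled tags (3.89% relative to the median window).

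Of 91 merged regions in the 10 windows, 22 were called in all 10 libraries and 39 in 1 library. In a limma fit of all 12550 regions called in every library, 0 of the 22 passed the threshold and 2 had an unadjusted p under 0.05, against 1.07% and 17.2% of all regions. They lay on the higher side in old hepatocytes in 7 cases and on the lower side in 15, with a median log2 difference of −0.11 against −0.01 for all regions tested. Of the 69 others, 19 (27.5%) were called in more old libraries, 44 (63.8%) in more young libraries and 6 in as many of each. Of all 34217 merged regions not called in all 10 libraries, 35.9% were called in more old and 51.1% in more young libraries, so a tilt to young libraries was there over the whole genome too, and whether the members' split differs from it was not tested. Among the 69, 0 were called in all libraries of one age and none of the other. Old libraries held 38 to 56 called regions in the 10 windows and young libraries 48 to 60.

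Tags per kb, averaged over all called length of a window, ordered the members from Fasn (125 ± 19.2 tags per kb, SD, n = 10) over Srebf1 (116 ± 21.2), Me1 (107 ± 20.6), Mlxipl (92.3 ± 13.5), Scd1 (84.3 ± 10.3), Thrsp (74.3 ± 16.1), Acly (61.8 ± 8.54), Elovl6 (57.6 ± 7.89) and Acacb (53.8 ± 10.03) to Acaca (51.2 ± 9.39). Each gene differed from the next in this order by less than the spread between libraries. Fasn stood at the 85.2 percentile of all windows by tags per kb and Acaca at the 13.4 percentile. Weak regions lower such an average, so it does not rank the height of single regions. The strongest region held 111 tags per kb at Acaca and 93.6 at Elovl6, against 91.1 at Scd1 and 75.4 at Thrsp. By summed scaled tags every member but Me1 stood higher among all windows than by tags per kb, with Srebf1 at the 98.7 percentile. Me1 stood at the 64.4 percentile by summed tags and at the 73.4 percentile by tags per kb. The share of a window filled by called regions ranged from 3.17% at Me1 to 70.4% at Thrsp. Against the input value of the same regions, the enrichment ranged from 5.26-fold (Acacb, old 5) to 19.0-fold (Me1, old 3) in old libraries and from 5.46-fold (Acly, young 3) to 26.5-fold (Me1, young 5) in young ones.

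Which library was high or low differed from member to member. Relative to the median window, young 1 was the lowest of the 10 libraries at Fasn, Acly and Thrsp and the highest at Acaca, Acacb, Scd1 and Elovl6, so it held 7 of the 20 extreme values. No other library held more than 3. Its deviation from the gene mean was −0.67 at Fasn and −0.50 at Thrsp and 0.71 at Acacb and 0.60 at Elovl6 on the log2 scale. At Thrsp its rank depends on the window edge, since the window counted 495 of the 591 scaled tags that young 1 held in the merged region. At Acly young 1 had no call in the region near the Klhl11 start, where the other libraries held 80.1 to 264 scaled tags. In the region at the start of Acly it held 416, within the range of 295 to 577 of all libraries. Its share of tags in regions (36.4%) and its total of 8830854 tags lay within the range of the other libraries. Young 5 was the lowest at Mlxipl, Acaca and Scd1, and its estimated fragment length of 620 bp stood apart from 414 to 444 bp in the other libraries, as did its 15544145 tags from 6295930 to 9847344. On the scaled tags as deposited the order was another one, with young 2, the library with the largest share of tags in regions, the highest at 7 members and old 5, the one with the smallest (24.5%), the lowest at 5. Leaving out young 1 raised the count of windows called over all genes to 68, and leaving out old 4 lowered it to 2, with 0 members called in both cases.

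**Figure D4:**
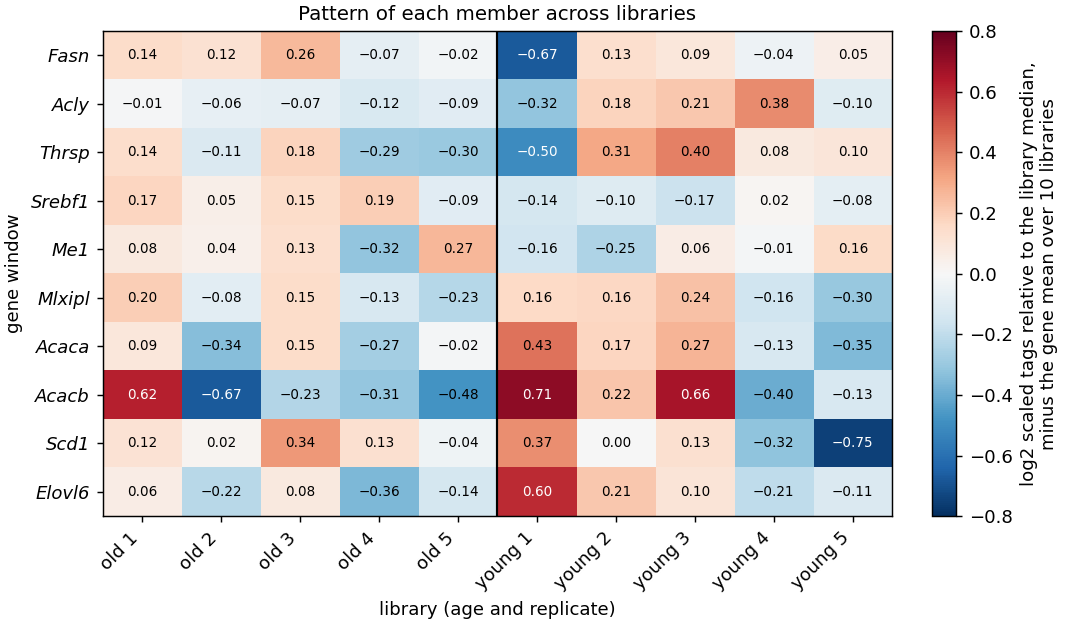
Log2 scaled tags relative to the library's median window, minus the mean of the gene over the 10 libraries, for each member (rows) and library (columns), old libraries left of the line and young libraries right of it. Young 1 is at once the lowest at Fasn (−0.67), Acly (−0.32) and Thrsp (−0.50) and the highest at Acacb (0.71), Elovl6 (0.60), Acaca (0.43) and Scd1 (0.37). In the Acly window young 1 had no call in the region near the start of the neighbour Klhl11.

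Beside the members, 91 genes in 5 lists of the same pathway were counted in the same fit. For activation, transport and partners of SREBP and ChREBP, 0 of 21 tested windows passed the threshold, with 11 on the higher and 10 on the lower side in old hepatocytes and a median log2 difference of 0.01. The largest difference was that of Lpin1, lipin 1, a phosphatidate phosphatase and coregulator known to restrain SREBP in the nucleus, with 646 ± 202 scaled tags in old and 1537 ± 463 in young libraries (SD, n = 5 each; log2 difference −0.89 ± 0.20 SE; limma adjusted p = 0.0741). Without young 1 it passed the threshold (−1.05; limma adjusted p = 0.0216), in a fit where the windows called over all genes rose from 21 to 68. With any other library left out Lpin1 did not pass (limma adjusted p between 0.109 and 0.174). Nr0b2, the repressor SHP, held 593 ± 224 in old and 493 ± 217 in young libraries (0.67 ± 0.39; limma adjusted p = 0.470; 0.30 without young 3). Rxra, the partner of the liver X receptors, held 1568 ± 333 in old and 3073 ± 1085 in young libraries (−0.59 ± 0.15; limma adjusted p = 0.133), and its difference in tags per kb was 0.01.

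For the supply of substrate and NADPH, 0 of 18 windows passed, 9 on each side, with a median of 0.02. Pdk4, the kinase that shuts off pyruvate dehydrogenase in fasting, held 219 ± 52.1 scaled tags in old and 133 ± 61.3 in young libraries (log2 difference 1.16 ± 0.25 SE; limma adjusted p = 0.0684). Gckr, the regulator of glucokinase, held 474 ± 111 in old and 835 ± 158 in young libraries (−0.48 ± 0.17; limma adjusted p = 0.265).

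For insulin and AMPK control, 1 of 17 windows passed the threshold, 4 lay on the higher and 13 on the lower side, and the median was −0.20. The window that passed was that of Pik3r1, the regulatory subunit of phosphoinositide 3-kinase that links the insulin receptor to SREBP-1c. It held 785, 833, 794, 713 and 563 scaled tags in old replicates 1 to 5 and 1493, 1594, 1225, 1657 and 1226 in young replicates 1 to 5. All old libraries lay below all young ones, also relative to the median window, where the log2 difference was −0.62 ± 0.09 (SE; limma adjusted p = 0.0309). The call was lost without any one of 8 of the 10 libraries, namely old 1 to 5, young 3, young 4 and young 5 (limma adjusted p between 0.0556 and 0.0792), and called length (−0.81) and tags per kb (0.18) had opposite signs. With only the strongest region of each library the difference was −0.34 and was not called (limma adjusted p = 0.228). Akt1, the kinase below it, held 259 ± 33.3 in old and 234 ± 126 in young libraries (0.72 ± 0.34; limma adjusted p = 0.375; 0.39 without young 3). Insr, the insulin receptor, held 796 ± 258 in old and 1359 ± 358 in young libraries (−0.45 ± 0.20; limma adjusted p = 0.363; −0.26 without young 1).

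For elongation, desaturation and acylation, 0 of 18 windows passed, 13 on the higher and 5 on the lower side, with a median of 0.14. Pnpla3, a lipid droplet protein that SREBP-1c is known to induce, held 913, 1063, 762, 739 and 403 scaled tags in old replicates 1 to 5 and 151, 568, 350, 490 and 492 in young replicates 1 to 5. Only old 5 lay among the young values, and relative to the median window the ages did not overlap (log2 difference 1.32 ± 0.27 SE; limma adjusted p = 0.0636). It passed the threshold without young 1 (1.06; limma adjusted p = 0.0287) and with only the strongest region of each library (1.29; limma adjusted p = 0.00785). Without any one of old 1 to 5 or young 3 to 5 it did not pass. Fads1, the delta-5 desaturase, held 291 ± 40.7 in old and 243 ± 118 in young libraries (0.73 ± 0.23; limma adjusted p = 0.216). Elovl3 held 87.3 ± 14.4 in old and 185 ± 107 in young libraries (−0.57 ± 0.28; limma adjusted p = 0.392; −0.36 without young 4). Scd2, Scd3 and Scd4, the relatives of Scd1, had no called region in any library.

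Among 9 relatives of the members 5 windows were tested, 0 passed, 4 lay on the higher and 1 on the lower side, and the median was 0.12. Mlycd, malonyl-CoA decarboxylase, held 840 ± 337 scaled tags in old and 684 ± 438 in young libraries (log2 difference 0.72 ± 0.32 SE; limma adjusted p = 0.352), and its difference in tags per kb was −0.04. Mecr of mitochondrial fatty acid synthesis held 559 ± 103 in old and 856 ± 185 in young libraries (−0.26 ± 0.11; limma adjusted p = 0.310; −0.18 without old 1). Mid1ip1, the paralog of Thrsp that helps acetyl-CoA carboxylase to polymerise, held 332 ± 24.9 in old and 389 ± 54.0 in young libraries (0.12 ± 0.11; limma adjusted p = 0.653; 0.06 without old 4). Me2 and Me3, the mitochondrial malic enzymes, had no called region in any library, unlike Me1.

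**Figure D5:**
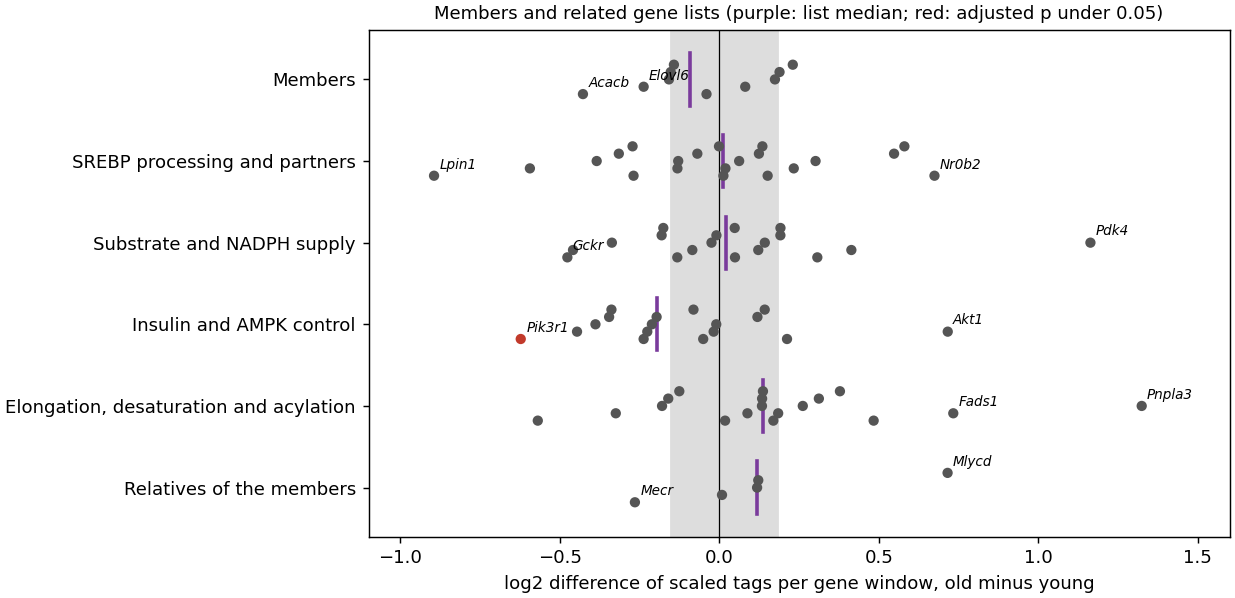
Log2 difference of scaled tags per gene window, old minus young, for the members and 5 related lists, 1 point per gene, with the list median in purple and the interquartile range of all windows in grey. Pik3r1 (−0.62) is the only point past the threshold, and Pnpla3 (1.32), Pdk4 (1.16) and Lpin1 (−0.89) lie farther from 0.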

How the data were processed

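H3K27ac ChIP-seq region lists of 10 libraries, 5 from old and 5 from young hepatocytes, were analysed. Of the input, the per-region values inside these lists were used. Regions had been called by the authors library by library with HOMER's histone mode against the matched input, per the file headers, by stitching peaks of 500 bp at least 1000 bp apart. Calling required 4-fold enrichment over the input and over the surrounding 10000 bp, each at a Poisson p of 1e-04. Per the submitters' processing notes the genome was mm10. An aligner is not given in the sources used here. As deposited, the signal of a region was its tags scaled by the authors to 10000000 per library. The deposited unscaled tags, in steps of 0.5, were treated as estimated counts (expected counts) and rounded for edgeR and DESeq2. The authors' score ranked regions within a list, their fold over input, a ratio, served as a stricter threshold, and the length deposited with a region was used in bp. Depth was 6295930 to 15544145 tags per library, and weak regions are close to the calling threshold.

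Tags and lengths were summed per window of a RefSeq gene span (GRCm38.p6) with 5 kb on both sides, taking each region that overlapped by 1 bp. limma 3.58.1 with a mean-dependent prior was fitted to log2(scaled tags + 1), log2(length) and log2(tags per kb + 1) of windows with a region in all 10 libraries. The pseudocount understates changes of weak windows. Overlapping regions of different libraries were joined to 46767 merged regions, 12550 of them called in every library. A call was a Benjamini-Hochberg adjusted p under 0.05 over all windows or regions. edgeR 4.0.16 and DESeq2 1.42.0 were alternatives, as were other filters, flanks, thresholds, scalings and left-out libraries. The limma step was tested on simulated data. R 4.3.3, Python 3.11.15, numpy 2.4.6, pandas 2.3.3, scipy 1.17.1 and matplotlib 3.10.9 were used. The members and lists were chosen with earlier results of these data known. Named are all members, of each related list each gene that passed and, where fewer than 3 did, the 3 with the largest difference, and the strongest region of each member. A gene that this rule names is not reported here.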

Additional observations from a re-analysis of the deposited data

Results flagged for a closer look

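Within each age, the 5 values of each member were screened for a library that stood far from the other 4 by Dixon's criterion (a gap over 0.71 of the range). Of 60 such groups 4 held one, and chance flags about 1 in 20. Old 5 had 8131 bp of called length at Fasn, below 11658 to 12648 bp in the other old libraries. Old 4 had 96.0 tags per kb at Fasn, below 122 to 132 in the other old libraries. Young 5 had 67.9 tags per kb at Mlxipl, below 95.3 to 106 in the other young libraries, and 64.5 tags per kb at Scd1, below 88.8 to 97.2. Young 5 is also the library with an estimated fragment length of 620 bp, and its part in these values was not tested. Without young 5 the log2 difference in scaled tags was 0.07 at Scd1.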

How the results depend on the processing

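In scaled tags, called length and tags per kb, and in the merged regions, 0 members were called under each alternative run, including those that left out each library in turn. Signs of members did depend on the scaling. Without centring, log2 differences turned to −0.15 at Srebf1, −0.17 at Fasn, −0.11 at Scd1, −0.26 at Me1 and −0.22 at Mid1ip1, and in the strongest region to −0.14 (Srebf1), −0.044 (Scd1) and −0.23 (Me1). With lists reduced to the length of the shortest, which kept 8 members, they turned to 0.28 at Mlxipl, 0.23 at Elovl6 and 1.08 at Mecr. Mlxipl turned to 0.0053 with cyclic loess and to 0.033 when only the strongest region of each library was taken. With the share of tags in regions as a covariate they turned to 0.059 (Mlxipl), 0.011 (Acly), −0.011 (Me1), 0.035 (Thrsp) and −0.031 (Mid1ip1). In tags per kb the strongest regions turned to −0.19 (Srebf1), 0.020 (Mlxipl), 0.024 (Acacb), 0.087 (Acly) and −0.049 (Me1). With 1 library left out, Mlxipl ranged from −0.12 to 0.014 and its strongest region from −0.13 to 0.051. The causes were not tested.

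The related lists held 1 call, Pik3r1. With only the strongest region of each library Pik3r1 was not called and Pnpla3 was. They held 0 among windows called in at least 5 libraries, at 8-fold over input (where 4 members could be tested), with lists of equal length, with the replicate block and with the share of tags in regions as a covariate. They held 2 without centring, 5 with DESeq2 (Pik3r1, Lpin1, Rxra, Pdk4 and Pnpla3) and 0 to 3 with 1 library left out. The 21 windows called over all genes became 0 with that covariate, 1 with equal lists, 4 with the block, 5 in at least 5 libraries, 8 at 8-fold, 11 without a filter, 47 with edgeR, 56 with loess, 87 without centring (2 higher, 85 lower) and 298 with DESeq2, and 2 to 68 with 1 library left out. The 9 windows called in tags per kb became 0 to 11 and the 1 called in length 0 to 7. Old and young libraries share replicate numbers, but same-numbered libraries did not deviate together (correlations −0.036, 0.18, 0.133, −0.04 and −0.06), and a library correlated best with its own number in 3 of 10 cases. With the number as a block, 0 members were called and Pik3r1 had a limma adjusted p of 0.0867.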
